A study of Mus musculus with 4 samples.

Results

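The 10 genes described here, Edar, Edaradd, Dkk4, Fgf20, Sp5, Lef1, Axin2, Wnt10a, Wnt10b and Ltb, act in the Wnt and Eda pathways that build the hair placode. They were taken by symbol from the 56980 genes listed in each library, and all 10 were found. Levels come from single-cell RNA-seq of 4 libraries, each from 1 mouse embryo. Dorsal skin cells had been sorted as positive for Epcam, an epithelial surface protein, and for α6 integrin, found where basal cells meet the basement membrane. The labels place the embryos at E16.5, although the study's list of litters gives an earlier day for this experiment. The labels were followed. The 2 Ctrl libraries carried floxed Suv39h1 and Setdb1 and a constitutive deletion of Suv39h2, so that the controls lacked a functional Suv39h2 by label too, and were negative for K14CreERT2. In the 2 TKO libraries, where TKO stands for triple knockout, K14CreERT2 was added to those alleles: a recombinase that tamoxifen activates and that the K14 promoter drives in basal keratinocytes. Both groups received tamoxifen. All 3 targeted genes code for methyltransferases of H3K9me3, which marks silenced chromatin. According to the study, loss of the mark in the TKO epidermis is mosaic, so a TKO library can mix cells with and without it. P-values here measure the spread between 2 embryos a group.

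A hair follicle starts as a placode, a thickening of the embryonic epidermis. Wnt ligands stabilise β-catenin, which acts with LEF and TCF factors on target genes, and the Eda receptor Edar works through its adaptor Edaradd to activate NF-κB. The pathways feed each other in the placode: Wnt signalling is needed for Edar expression, and Eda signalling in turn keeps Wnt ligands and Fgf20 on, while secreted inhibitors such as Dkk4 limit how far the signal spreads. Placode cells later give rise to germ, peg and follicle lineages in which several of these genes are switched down.

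Counts were UMIs, molecular identifiers that count each captured RNA molecule once, and levels are given as counts per 1e+06 UMIs of the class in a library (CPM). Of 19789 barcodes, 10764 were kept, and 9195 of those fell in keratinocyte clusters. The hair follicle-like class held 1856 cells. It was made of 5 clusters, of which 3 were named early follicle-like (921 cells) and 2 late follicle-like (935 cells) from markers that include none of the 10 genes. The basal-like class held 5580 cells. The study reports TKO-specific aberrant basal and aberrant differentiating clusters of mixed identity, which were not separated here. In the clustering of all kept cells, a cluster led by Psca and Mal held 188 and 143 TKO cells against 29 and 24 Ctrl cells. Its cells were clustered again with the other keratinocytes, so the TKO classes can include aberrant cells. Neither the 10 genes nor the pathway lists below were used to form the clusters. TKO cells held more UMIs each: the median hair follicle-like cell held 19413.5 and 15184 UMIs in Ctrl replicates 1 and 2, and 25454 and 23643 in TKO replicates 1 and 2. Deeper reading and more RNA per cell were not told apart here, and CPM does not show a rise shared by all genes. The libraries shared 2 to 12 barcodes with each other. The targeted gene Setdb1 stood at 76.7 and 62.1 CPM in Ctrl and 40.3 and 44.7 CPM in TKO hair follicle-like cells (log2 change -0.68, SE 0.14, adjusted p = 0.0361, edgeR quasi-likelihood test). Suv39h1 stood at 30.3 and 29.1 against 24.4 and 23.9 CPM (log2 change -0.27, adjusted p = 0.224). Transcripts of Suv39h2 were counted in all 4 libraries, at 17.4 and 19.3 against 24.5 and 19.8 CPM (log2 change 0.30, adjusted p = 0.304), and the counts are 3′ tags, which need not lie in the deleted parts.

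The make-up of the follicle class differed between genotypes. Early follicle-like cells were 46.7% and 42.6% of the follicle cells of the Ctrl embryos, against 61.8% and 60.5% for TKO. Values over the whole follicle class are therefore given beside those within the early and late cells and within single clusters, and fewer cells of a type and less RNA per cell are separated only as far as these classes separate them. The early cells comprised a cluster led by Nr3c2 and Rgs2 (Dkk4, Edar and Fgf20, not used to form it, were also among its leading genes), a cycling cluster led by Cenpf and Ube2c within the follicle class (and, against all keratinocyte-like cells, by Dkk4, Fgf20 and Sp5, which were not used to form it), and a cluster led by Shh. The late cells comprised a cluster led by Nfatc1 and Lgr5 and one led by Pthlh and Krt79. The last held 19 and 21 TKO cells against 113 and 145 Ctrl cells. The cycling cluster held 38 and 36 of the 254 and 309 Ctrl early cells, and 35 and 44 of the 147 and 211 TKO early cells.

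Over 4 keratinocyte classes (early follicle-, late follicle-, basal- and differentiating-like), 9 of the 10 genes had their highest mean Ctrl level in the early follicle-like cells, 8 of them with no overlap between the libraries of the early and the next class. In TKO all 10 did, with no overlap. Edar stood at 589 and 483 CPM in the early cells, at 189 and 179 in the late cells, at 88.1 and 84.1 in the basal-like cells and at 3.77 and 4.96 in the differentiating-like cells, in that order with no overlap of neighbours. Lef1, the DNA-binding partner of β-catenin, was ordered differently. It stood at 1123 and 1091 CPM in early, 667 and 776 in basal-like and 249 and 219 in late follicle-like Ctrl cells. Wnt10b and Fgf20 followed the order of Lef1, and Sp5, Dkk4 and Ltb that of Edar, with neighbours that overlapped only for Dkk4 (late and basal-like) among these 7 genes. Axin2 held 48.0 and 46.3 CPM in early, 43.3 and 40.8 in differentiating-, 37.0 and 35.2 in basal- and 26.9 and 24.5 in late follicle-like Ctrl cells. For Edaradd the early and basal-like Ctrl libraries overlapped. Wnt10a was the exception to the early peak in Ctrl, with 59.5 and 71.6 CPM in basal-like cells against 31.8 and 44.8 in early and 35.7 and 34.8 in late cells, the last 2 classes overlapping. These levels describe the classes and were not tested, since a class is a cluster of these cells.

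**Figure D1:**
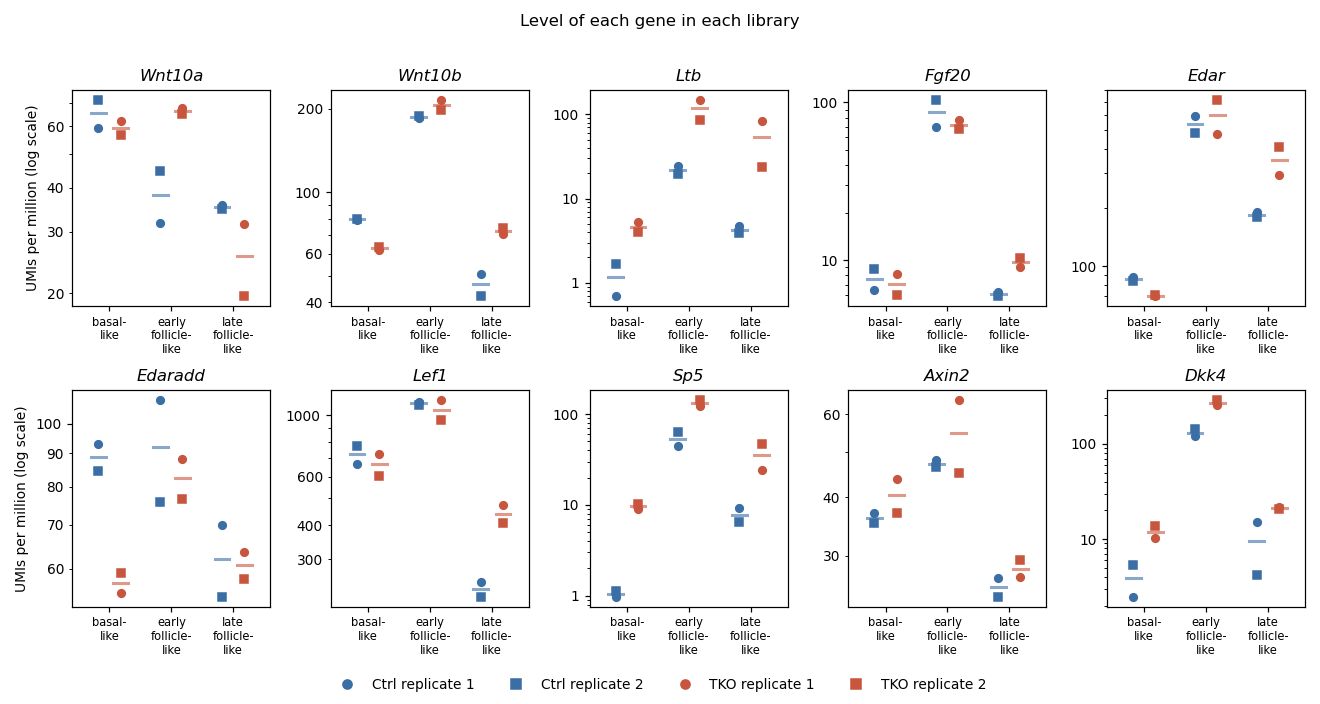
CPM (log axis, scaled separately for each gene) in basal-like, early follicle-like and late follicle-like cells for each of the 10 genes. Each point is 1 library, blue for Ctrl and red for TKO, and the bar is the mean of the 2. Sp5 lies near 1 CPM in Ctrl basal-like cells and at 8.96 and 10.3 in TKO. Ltb lies higher in both TKO libraries in all 3 classes, and Lef1 lies apart by genotype only in the late cells of the 3 classes.

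In the mouse genome GRCm39 (GENCODE vM39, matched by gene ID) all 10 genes code for proteins, and all but Edaradd overlap another annotated gene. Sp5 lies at chr2:70305267-70308073 on the plus strand and Ltb at chr17:35413382-35415296 on the plus strand. Dkk4 at chr8:23114059-23117563 overlaps Polb on the other strand, and Wnt10b at chr15:98668593-98690045 overlaps Wnt1 on the other strand. The use of strand in counting was not stated, so reads of such pairs could not be told apart here. Edar lies at chr10:58436611-58511535, Lef1 at chr3:130903919-131018005 and Edaradd at chr13:12487513-12535319. Axin2 lies at chr11:108811169-108841609, Wnt10a at chr1:74830675-74844355, and Fgf20 at chr8:40732207-40761372 overlaps 4 annotated genes, Micu3 among them.

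RefSeq promoter windows (build GRCm38.p6) were matched for 7 of the 10 genes, and none for Dkk4, Fgf20 and Wnt10a. The bases before the start are shown for 3 genes whose level differed between genotypes below, Sp5, Edar and Ltb, and capitals mark matches to the TCF/LEF core CTTTGA on either strand or, for Ltb, to the NF-κB consensus on either strand. The windows are chr2:70474673-70474922 (plus strand), chr10:58675714-58675946 (minus strand, up to the first transcribed base) and, for Ltb, 30 bases at chr17:35194410-35194439 (plus strand).
Sp5: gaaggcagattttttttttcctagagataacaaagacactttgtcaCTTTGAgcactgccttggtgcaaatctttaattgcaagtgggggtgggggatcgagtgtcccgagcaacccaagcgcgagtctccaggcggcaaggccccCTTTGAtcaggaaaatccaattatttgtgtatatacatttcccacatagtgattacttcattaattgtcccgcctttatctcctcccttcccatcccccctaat
Edar: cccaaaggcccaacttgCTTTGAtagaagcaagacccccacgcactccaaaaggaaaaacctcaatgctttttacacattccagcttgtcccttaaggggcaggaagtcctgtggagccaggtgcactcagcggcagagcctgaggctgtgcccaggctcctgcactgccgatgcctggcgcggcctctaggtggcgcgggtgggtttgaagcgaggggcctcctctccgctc
Ltb: aagggtgttcGGAAAGTCCCcgggcagggg
The Sp5 window held 2 TCF/LEF matches, starting 204 and 104 bases before the start, and the Edar window held 1. Among other genes that differed, the windows of Edaradd, Wnt10b and Ltb and 3 of the 4 of Lef1 held no TCF/LEF match. The remaining Lef1 window held 2 such matches, and the Wnt10b window held 2 NF-κB matches. Of the 10 windows of the 7 genes, 3 held a TCF/LEF match and 2 an NF-κB match. Of all 32851 windows of 250 bases in the table, 13.8% held a TCF/LEF match and 7.25% an NF-κB match. A match describes the letters of the window only.

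Ltb, Sp5 and Dkk4 rose in the TKO hair follicle-like cells. Wnt10b rose less, and its call was lost under several settings given below. Of the 10 genes, 4 rose and 0 fell in the follicle class, where 4.25% of the 15553 genes tested rose and 4.22% fell. The median log2 change of the 10 was 0.48, beside -0.0061 over all genes tested. Since the 10 genes were chosen with earlier results of these data known, these values are no test of the set. The changes of the other 6 ranged from -0.0099 for Edaradd to 0.59 for Edar. In the early cells 3 rose and 0 fell (1.6% and 1.12% of 13164 genes), with a median of 0.16 beside -0.014, and in the late cells 5 rose and 0 fell (4.13% and 4.1% of 13934 genes), with a median of 0.82 beside -0.0091. In basal-like cells 3 of the 10 rose (8.72% of 17962 genes) and 1 fell (4.99% of genes), with a median of -0.12 beside -0.016 over all genes. That balance turned to 1 raised and 3 lowered with doublets kept and with clustering on uncorrected components.

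**Figure D2:**
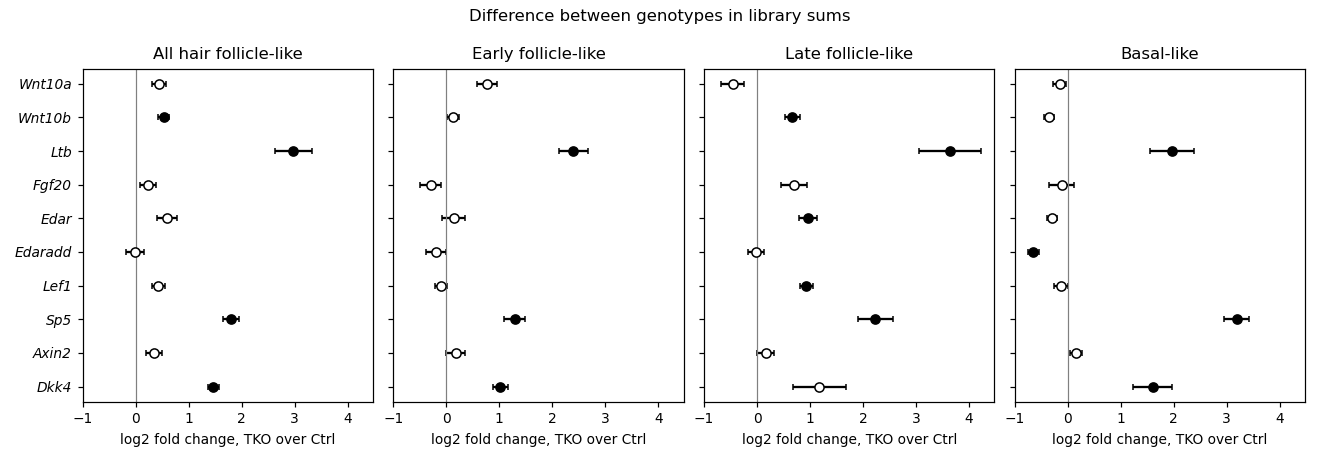
Log2 change, TKO over Ctrl, from the edgeR fit of library sums (bars, 1 SE) in all hair follicle-like, early, late and basal-like cells. Filled points pass an adjusted p of 0.05 over all genes tested. Ltb and Sp5 are filled in all 4 classes, Lef1 and Edar in the late cells alone of the 4, and Edaradd only in the basal-like cells, where it lies below 0.

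Among the ligands, Ltb, a membrane-bound ligand of the lymphotoxin β receptor and a known target of Eda and NF-κB signalling, rose in every class of the plot. Early follicle-like cells held 24.2 and 19.4 CPM of Ltb in Ctrl, against 150 and 85.5 CPM in TKO, from 139, 102, 653 and 443 UMIs. Late follicle-like cells held 4.71 and 3.86 against 84.0 and 24.0 CPM. The TKO libraries lay above both Ctrl libraries in each class, with replicate 1 the higher of the TKO pair. Ltb rose by 2.98 on the log2 scale in all follicle cells (SE 0.35, adjusted p = 0.00612), by 2.40 in the early cells (SE 0.27, adjusted p = 0.0135) and by 3.65 in the late cells (SE 0.59, adjusted p = 0.0157), all in the edgeR fit. Over the alternatives the late value ran from 2.53 to 5.19. The late call was lost without Ctrl replicate 2 (adjusted p = 0.0681).

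Ltb is best known from lymphocytes, and the summed CPM of 8 immune markers in the hair follicle-like cells was 1.14 and 2.29 in Ctrl and 12.3 and 15.9 in TKO, with 1 of the 8 at 0 in every library. In the early cells alone this sum was 1.39 and 1.91 against 2.99 and 14.7, and in the late cells 0.942 and 2.53 against 25.1 and 17.3. Immune-like cells themselves held 5934 to 6625 CPM of these markers and 1.80 to 6.38 CPM of Ltb. That class was led by macrophage genes such as Cd163 and C1qa and by mast cell genes such as Cma1 and Cpa3, so its Ltb level does not speak for lymphocytes, and the part of immune RNA in the follicle values was not tested. The share of early cells with an Ltb UMI, after thinning every cell to 5000 UMIs, was 7.57% and 6.25% in Ctrl and 27.2% and 22.1% in TKO. Before thinning these shares were 20.9% and 17.2% against 51.0% and 43.1%, at median depths of 18899.5, 14997, 25171 and 20925 UMIs. The thinned share in immune-like cells ran from 1.04% to 3.12% at median depths of 13390 to 18240 UMIs. With 2 libraries a group the exact two-sided permutation test of a share cannot go below p = 0.333, which it gave here.

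Wnt10b, a Wnt ligand expressed in the placode, stood at 110 and 98.8 CPM in Ctrl and 154 and 142 CPM in TKO hair follicle-like cells. It rose by 0.53 on the log2 scale over the class (SE 0.11, adjusted p = 0.0286) and by 0.67 in the late cells (SE 0.13, adjusted p = 0.0283), where it stood at 50.7 and 42.1 against 70.5 and 74.4 CPM. In the early cells the libraries held 186 and 188 against 216 and 198 CPM, a log2 difference of 0.12 (SE 0.11, adjusted p = 0.633). Within the Nr3c2-led cluster, which holds most early cells, the difference was -0.021 (SE 0.14). The call over the class was lost without Ctrl replicate 1 (adjusted p = 0.0775) and without Ctrl replicate 2 (adjusted p = 0.219), and under 6 settings that kept the whole class, among them doublets kept (0.0581) and cells thinned to 5000 UMIs (0.052). It passed in none of the 5 follicle clusters fitted alone. In the late cells it was lost with cells thinned (adjusted p = 0.232), without Ctrl replicate 1 (adjusted p = 0.0541), Ctrl replicate 2 (adjusted p = 0.221) or TKO replicate 2 (adjusted p = 0.0566).

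Wnt10a, its close paralogue, was not called in the early or late cells under the settings used throughout, but was under 6 alternatives in the early cells and, without TKO replicate 1, in the late cells. Early cells held 31.8 and 44.8 CPM in Ctrl and 67.5 and 64.9 in TKO (log2 0.77, SE 0.18, adjusted p = 0.0842). Late cells held 35.7 and 34.8 against 31.7 and 19.6 (log2 -0.45, SE 0.22, adjusted p = 0.241). The 2 late clusters parted: Wnt10a held 17 and 18.5 against 27.7 and 17.2 CPM in the Nfatc1-led cluster (log2 0.34, SE 0.24, adjusted p = 0.478) and 85.6 and 81.5 against 53.9 and 41.3 CPM in the Pthlh-led cluster (log2 -0.82, SE 0.24, adjusted p = 0.143), which held a smaller share of the TKO late cells. Over the alternatives the late value ran from -0.80 to 0.69. The test of the difference between the early and late effects gave 1.27 (SE 0.25, adjusted p = 0.0591) and passed under 7 alternatives.

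Fgf20, the placode ligand that recruits the dermal condensate, was called in none of the 4 classes under the settings used throughout, and in the early and late cells with clustering on uncorrected components, where the early value reached -0.82. Early cells held 69.8 and 104 CPM in Ctrl and 77.0 and 67.8 in TKO, so the groups overlapped (log2 -0.29, SE 0.20, adjusted p = 0.506). Over the follicle class the log2 difference was 0.23 (SE 0.15, adjusted p = 0.408).

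Edar, the receptor, and Edaradd, its death-domain adaptor, differed from each other in where the genotypes parted. Late follicle-like cells held 189 and 179 CPM of Edar in Ctrl and 293 and 411 CPM in TKO, with no overlap. Edar rose by 0.96 on the log2 scale there (SE 0.16, adjusted p = 0.0189), and this call was lost without either Ctrl library (adjusted p = 0.0509 without replicate 1 and 0.102 without replicate 2) and with doublets kept (0.056). In the early cells it stood at 589 and 483 against 476 and 717 CPM, overlapping between groups (log2 0.14, SE 0.22, adjusted p = 0.804). The thinned share of late cells with an Edar UMI was 39.9% and 39.8% in Ctrl and 61.1% and 76.1% in TKO (64.8%, 64.2%, 89.0% and 94.2% before thinning). Edaradd held 109 and 75.8 CPM in Ctrl early cells and 88.2 and 76.6 CPM in TKO early cells, and its follicle-wide difference was -0.0099 (SE 0.17, adjusted p = 0.982).

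The basal-like cells differed in marker sums between genotypes. Basal markers summed to 17599 and 20533 CPM in Ctrl and 13223 and 17152 in TKO, fibroblast markers to 1146 and 1327 against 1005 and 832, endothelial markers to 16.8 and 17.4 against 36.5 and 24.4, and immune markers to 1.97 and 2.53 against 3.23 and 5.58. Their part in the basal-like values of Edaradd, Sp5, Dkk4 and Ltb was not tested. In these cells Edaradd fell. It stood at 93.0 and 84.7 CPM in Ctrl and 55.1 and 59.1 CPM in TKO (log2 -0.65, SE 0.11, adjusted p = 0.0129). The call was lost without Ctrl replicate 1 (adjusted p = 0.0606). In differentiating-like cells it stood at 36.0 and 38.0 against 13.2 and 14.2 CPM and fell by 1.51 on the log2 scale (SE 0.15, adjusted p = 0.0203). Edar in basal-like cells, at 88.1 and 84.1 against 70.2 and 70.9 CPM, did not pass (log2 -0.30, SE 0.09, adjusted p = 0.0829). Wnt10b there, at 79.4 and 80.2 against 62.0 and 63.5 CPM, missed the threshold too (log2 -0.35, SE 0.09, adjusted p = 0.0527) and passed under 6 alternatives.

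Lef1 parted by genotype in the late cells. They held 249 and 219 CPM in Ctrl and 473 and 406 CPM in TKO, and Lef1 rose by 0.93 on the log2 scale (SE 0.12, adjusted p = 0.00717), a call kept under each library left out. Early cells held 1123 and 1091 against 1135 and 962 CPM (log2 -0.10, SE 0.11, adjusted p = 0.702), and basal-like cells 667 and 776 against 726 and 605 CPM (log2 -0.13, SE 0.13, adjusted p = 0.548). The thinned share of late cells with a Lef1 UMI was 42.7% and 41.0% in Ctrl and 70.0% and 64.5% in TKO, and 64.5%, 61.3%, 93.4% and 89.1% before thinning. The late class itself differed in its markers: the summed CPM of its 6 late markers was 1283 and 1651 in Ctrl and 495 and 671 in TKO, and that of the 8 early markers 1248 and 1195 against 1334 and 1742. Fibroblast markers summed to 685 and 576 against 1181 and 1160 CPM, and immune markers to 0.942 and 2.53 against 25.1 and 17.3 CPM. The fibroblast list includes Dcn, also among the leading genes of the Nr3c2-led early cluster. In the early cells that list summed to 2931 and 2825 against 2153 and 2521 CPM. Merkel markers in the late cells summed to 72.0 and 113 against 20.1 and 17.3 CPM, and erythroid markers to 9.82 and 16.7 against 13.2 and 680. The part of these marker differences in the late values of Edar, Lef1, Wnt10b, Sp5 and Ltb was not tested. Both late clusters gave a call for Lef1: 0.78 in the Nfatc1-led cluster (SE 0.13, adjusted p = 0.0166) and 1.44 in the Pthlh-led cluster (SE 0.20, adjusted p = 0.00832), where 2.96% of 13297 and 1.44% of 10101 genes rose.

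Sp5, a zinc finger factor and direct Wnt target, rose in the follicle, early, late and basal-like classes. Basal-like cells held 0.972 and 1.13 CPM in Ctrl and 8.96 and 10.3 CPM in TKO, from 35, 38, 325 and 328 UMIs. The log2 change was 3.19 (SE 0.24, adjusted p = 0.00117), and each library left out kept the call. Over the alternatives the value ran from 2.42 to 4.41. The thinned share of basal-like cells with a Sp5 UMI was 0.376% and 0.388% in Ctrl and 3.59% and 3.13% in TKO, with 0 in the thinned immune-like and differentiating-like cells of all 4 libraries, which allows up to 0.457% to 4.69%, so at this depth those zeros do not set the Ctrl shares apart. Fibroblast-like cells, from 102 to 186 a library, gave 3.88% and 0.98% in Ctrl and 2.15% and 0.80% in TKO. Before thinning the basal-like shares were 1.18%, 1.43%, 10.0% and 7.85%, and those of differentiating-like cells 0, 0, 2.56% and 0.283%. The zeros, of 658 and 422 Ctrl cells, allow up to 0.456% and 0.711%. Of 10 basal-like clusters, that led by the S-phase genes H2ac8 and Pclaf had the highest Sp5, at 5.05 and 5.24 CPM in Ctrl and 32.2 and 35.2 CPM in TKO. That cluster, chosen after its values were seen, also held 1.42 and 2.33 against 18.8 and 10.6 CPM of Ltb. It held 186 of 1612 and 152 of 1821 basal-like cells in Ctrl and 152 of 1090 and 188 of 1057 in TKO. The part of this make-up in the basal-like values was not tested.

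In the follicle Sp5 started higher. Early cells held 44.4 and 63.1 CPM in Ctrl and 124 and 142 CPM in TKO (log2 1.29, SE 0.19, adjusted p = 0.0245). Late cells held 9.15 and 6.52 against 24.4 and 46.7 CPM (log2 2.23, SE 0.34, adjusted p = 0.0130). The early call was lost without Ctrl replicate 1 (adjusted p = 0.0681), TKO replicate 1 (0.0502) or TKO replicate 2 (0.0533) and with clustering on uncorrected components (0.0904), and the late call without Ctrl replicate 2 (adjusted p = 0.0601). Axin2, the negative-feedback target that scaffolds β-catenin destruction, was called in none of the 4 classes under the settings used throughout, and in the follicle class without TKO replicate 2 (log2 0.50). It stood at 36.1 and 32.9 CPM in Ctrl and 48.5 and 37.9 CPM in TKO follicle cells (log2 0.35, SE 0.14, adjusted p = 0.198) and at 37.0 and 35.2 against 43.7 and 37.0 CPM in basal-like cells (log2 0.15, SE 0.11, adjusted p = 0.430).

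Dkk4, a secreted inhibitor of Wnt signalling that is itself a placode marker, rose over the follicle class. The hair follicle-like cells held 60.9 and 57.8 CPM in Ctrl and 155 and 166 CPM in TKO (log2 1.46, SE 0.10, adjusted p = 0.00124). In the cycling cluster, a larger part of the TKO than of the Ctrl early cells, Dkk4 stood at 197 and 231 against 331 and 440 CPM. The part of this make-up in the early value was not tested. Within the early cells the level was 120 and 142 against 253 and 287 CPM, and Dkk4 rose by 1.02 (SE 0.14, adjusted p = 0.0218), a call lost without Ctrl replicate 1 (adjusted p = 0.0924) and, among other settings, with cells thinned (0.051) or clustered on uncorrected components (0.382). The late cells held 15.1 and 4.22 against 21.6 and 20.8 CPM, which did not pass (log2 1.18, SE 0.49, adjusted p = 0.190) but did under 5 alternatives, with values from 0.51 to 2.34 over all of them. Basal-like cells held 2.47 and 5.36 against 10.3 and 13.6 CPM, and Dkk4 rose by 1.60 on the log2 scale (SE 0.37, adjusted p = 0.0347), lost without Ctrl replicate 1 (adjusted p = 0.0531) or TKO replicate 2 (adjusted p = 0.0511) and under 5 other settings (0.0503 to 0.435), with a log2 change of 0.58 on uncorrected components. The basal-like clusters were uneven: the H2ac8-led cluster held 11.9 and 26.5 against 39.9 and 28.4 CPM of Dkk4, and a cluster led by Ptprt held 0.741 and 0.520 against 0 and 34.7. Ltb in basal-like cells, at 0.694 and 1.67 against 5.29 and 4.0 CPM, rose by 1.97 (SE 0.42, adjusted p = 0.0273), lost without Ctrl replicate 1 (adjusted p = 0.0542) and under 4 other settings (0.0715 to 0.117).

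**Figure D3:**
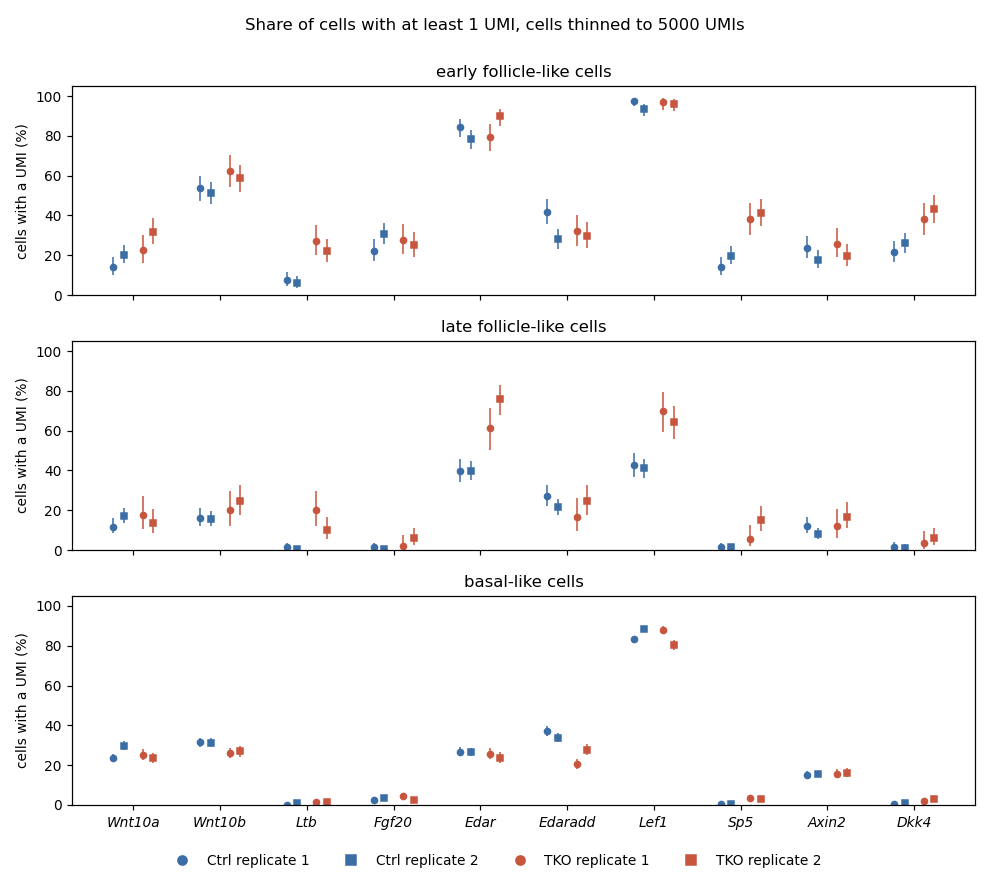
Percentage of cells with at least 1 UMI of each gene, per library, after thinning cells to 5000 UMIs. Bars are exact 95% binomial intervals for counting error only, and circles and squares are replicates 1 and 2. The share of early cells with Sp5 was 14.3% and 19.7% in Ctrl and 38.1% and 41.3% in TKO, while that with Fgf20 ran from 22.3% to 30.6% with the groups overlapping.

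Early cells that carried Dkk4 also carried Sp5 and Fgf20 more often in all 4 libraries. Of the thinned early cells with a Dkk4 UMI, 27.8% and 31.6% held Sp5 in Ctrl, against 51.8% and 55.6% in TKO. Of the early cells without a Dkk4 UMI, 10.7% and 15.6% held Sp5 in Ctrl and 29.7% and 30.5% in TKO. For Fgf20 the Dkk4 cells gave 42.6% and 55.7% in Ctrl and 44.6% and 37.8% in TKO, against 15.3% to 21.8% of the cells without Dkk4. Edar, Wnt10b and Ltb were also more frequent in the Dkk4 cells of all 4 libraries, but Edaradd, Lef1, Axin2 and Wnt10a were not. For Axin2 the TKO Dkk4 cells gave 23.2% and 17.8%, against 27.5% and 21.2% of the TKO cells without Dkk4. Cells of a library are not replicates, so these are descriptions.

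Across the follicle clusters Ltb was called in 3 of the 4 clusters in which it was tested and Sp5 in 2 of 4. In the Nr3c2-led cluster Ltb rose by 2.25 (SE 0.20, adjusted p = 0.00121) and Sp5 by 1.82 (SE 0.22, adjusted p = 0.00467), where 2.23% of 11834 genes rose. In the Nfatc1-led cluster Ltb rose by 3.46, Sp5 by 1.98, Lef1 by 0.78 and Edar by 0.73. In the cycling cluster Ltb rose by 2.96 (SE 0.52, adjusted p = 0.0242), where 0.771% of 9472 genes rose. In the Shh-led cluster, where 0.544% of 9183 genes rose, Dkk4 rose by 1.64 (SE 0.25, adjusted p = 0.0266) and Sp5, at 117 and 117 CPM in Ctrl and 159 and 169 in TKO, did not pass (log2 0.46, adjusted p = 0.318). Dkk4 was not called in the Nr3c2-led cluster (log2 0.77, adjusted p = 0.0725), the cycling cluster (log2 0.85, adjusted p = 0.0615) or the Nfatc1-led cluster (log2 0.94, adjusted p = 0.312).

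**Figure D4:**
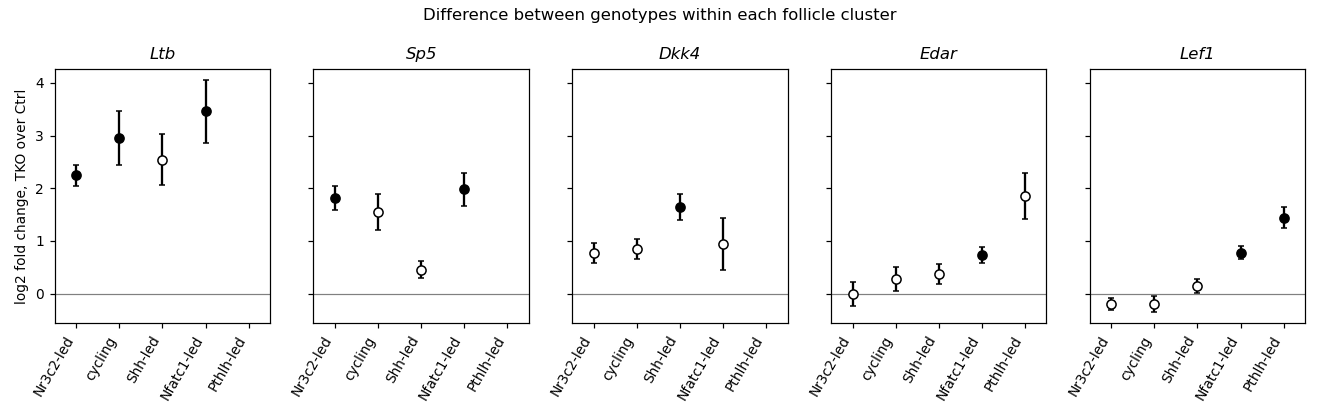
Log2 change, TKO over Ctrl, in the sums of each follicle cluster for Ltb, Sp5, Dkk4, Edar and Lef1 (bars, 1 SE; filled points pass an adjusted p of 0.05). The Pthlh-led cluster shows no Ltb, Sp5 or Dkk4 point because these were too low to test there. Lef1 lies at -0.19 and -0.20 in the Nr3c2-led and cycling clusters and at 0.78 and 1.44 in the 2 late clusters.

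Whether the genotypes differed more in one class than another was tested on the sums of both classes with the library as a block. Between the follicle and basal-like classes, 6 of the 10 genes passed, 5 with the higher TKO effect in the follicle (1.98% of 18306 genes) and 1 with the lower (1.64%). Wnt10b gave 0.93 (SE 0.09, adjusted p = 0.00457), Edar 0.92, Edaradd 0.69, Wnt10a 0.63 and Lef1 0.60. Sp5 gave -1.34 (SE 0.15, adjusted p = 0.00646). Edar, Lef1 and Wnt10a were called in neither class alone. The follicle sums join early and late cells, whose shares differed between genotypes as given above. The part of that make-up in these differences was not tested. Between the early and late cells 2 of the 10 passed, both with the higher effect in the late cells (0.69% of 14196 genes, with 0.564% the other way): Lef1 at -1.01 (SE 0.09, adjusted p = 0.0064) and Edar at -0.80 (SE 0.12, adjusted p = 0.0217). The late class differed between genotypes in its early and late markers, as given above. The part of this in the early against late differences was not tested. With each library left out, Wnt10b and Sp5 kept their follicle against basal-like calls, and that of Sp5 was lost with doublets kept (adjusted p = 0.0835), without correction of the components (0.201), at Leiden resolution 2 (0.057) and with cells thinned (0.14). The other 4 lost theirs without Ctrl replicate 2 (adjusted p = 0.0643 for Lef1, 0.113 for Wnt10a, 0.135 for Edar and 0.19 for Edaradd), as did Edaradd, Lef1 and Wnt10a without TKO replicate 1 (0.182, 0.139 and 0.0773), Lef1 without TKO replicate 2 (0.103) and Wnt10a without Ctrl replicate 1 (0.0511). The Edaradd call was also lost with doublets kept (0.0532), at Leiden resolution 2 (0.0982), with the genotype genes kept for clustering (0.0554), with cells thinned (0.0862) and with RLE size factors (0.0513), and that of Wnt10a at Leiden resolution 0.5 (0.112). Both early against late calls were lost without Ctrl replicate 1 (0.0829 for Lef1 and 0.239 for Edar) and without Ctrl replicate 2 (0.128 and 0.161). Without the library block 1 and 0 of the 10 genes passed.

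The other Wnt, Eda and Fgf genes were read from 6 lists. Their counts stand beside 4.25% of genes raised and 4.22% lowered in the follicle (median log2 change -0.0061), 8.72% and 4.99% in basal-like cells (-0.016), 1.6% and 1.12% in early cells (-0.014) and 4.13% and 4.1% in late cells (-0.0091). Of 23 Wnt ligand and secretion genes, 12 were tested in the follicle class, 3 rose and 2 fell, with a median log2 change of 0.25. Wnt3, a canonical ligand, stood at 76.4 and 74.8 against 140 and 126 CPM and rose by 0.84 (SE 0.10, adjusted p = 0.00632), and Wnt16 and Wnt5b rose by 0.57 and 0.66. Wnt5a fell by 2.94 (9.33 and 9.83 against 0.398 and 1.89 CPM, SE 0.48, adjusted p = 0.0162), and Wnt4 fell by 0.98 (296 and 278 against 160 and 126 CPM, SE 0.13, adjusted p = 0.00793). In basal-like cells 2 of 14 rose, Wnt9a by 2.70 and Wnt7a by 0.77, and 1 fell, Wnt4 by 0.57.

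Of 18 Wnt receptor genes, 16 were tested in the follicle and in the basal-like class. In the follicle 2 fell and 0 rose, with a median of -0.51 beside -0.0061 over all genes: Ror1, a Wnt5a receptor, by 1.13 (SE 0.24, adjusted p = 0.0369) and Lgr4, an R-spondin receptor, by 0.51. In basal-like cells 4 fell and 0 rose, with a median of -0.43 beside -0.016 over all genes. Ror1 went from 216 and 223 CPM to 57.2 and 41.1 CPM and fell by 2.17 (SE 0.15, adjusted p = 9.54e-04), and Fzd5, Fzd2 and Fzd10 fell by 1.21, 0.50 and 0.37.

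Of 19 Wnt inhibitors, 14 were tested in the follicle, where 2 rose and 1 fell (median 0.038). Nkd1, a feedback inhibitor of dishevelled, rose by 0.91 (25.5 and 31.5 against 52.2 and 52.5 CPM, SE 0.13, adjusted p = 0.0122) and Kremen2, a Dkk co-receptor, by 0.73, while Sostdc1, a secreted antagonist of Bmp and Wnt, fell by 0.79 (SE 0.11, adjusted p = 0.00983). In basal-like cells Nkd1 rose by 2.90 (0.833 and 0.625 against 7.67 and 3.44 CPM, SE 0.44, adjusted p = 0.00977) and Wif1 by 1.38, and Sfrp1 and Rnf43 fell by 1.14 and 0.38, out of 11 tested (median -0.030). Of 23 intracellular Wnt genes 21 were tested in both of these classes. The follicle class gave 1 fall, Bcl9l by 0.54, and a median of -0.030, and the basal-like class gave 0 calls by edgeR with a median of -0.036.

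Of 21 genes of Eda and NF-κB signalling, 20 were tested in the follicle and 19 in basal-like cells, and in each 1 rose and 0 fell, with medians of 0.057 and -0.14. That gene was Eda2r, a receptor for the other isoform of ectodysplasin that is also a p53 target, which rose by 2.98 in the follicle (1.06 and 0.813 against 8.75 and 5.99 CPM, SE 0.35, adjusted p = 0.00572) and by 3.35 in basal-like cells (1.44 and 0.714 against 10.9 and 11.4 CPM, SE 0.33, adjusted p = 0.00251). Of 19 Fgf genes, 12 were tested in the follicle (median -0.17), where Etv4, an Fgf target, rose by 0.80 (SE 0.17, adjusted p = 0.0367) and Fgf9 fell by 2.40 (SE 0.37, adjusted p = 0.0141). None of the 13 tested passed in basal-like cells by edgeR (median -0.19).

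In the early cells 3 genes of the 6 lists passed: Wnt4 fell by 0.97, Ccnd1 fell by 1.79 and Eda2r rose by 2.44. In the late cells Etv4, Etv5 and Dusp6, which respond to Fgf signalling, rose by 1.55, 1.29 and 0.71, and Fgf9 fell by 2.04, of 12 Fgf genes tested. Ror1 fell by 2.66 there and Lgr4 by 0.78, while Fzd10 rose by 0.72, of 16 receptors. Kremen2 and Sfrp5 rose by 1.33 and 2.58 of 13 inhibitors, Ctnnb1, which encodes β-catenin, and Tnfrsf19 rose by 0.48 and 0.63 while Tle3 fell by 0.59 of 21 intracellular genes, and Wnt3 rose by 1.24 while Wnt4 and Wnt5a fell by 0.88 and 2.53 of 12 ligands. Eda2r rose by 3.41 of 19 Eda and NF-κB genes. These early and late genes are every one of the lists that passed, named after their values were seen.

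The 5 genes whose levels followed the summed level of the 10 most closely over 16 sums (4 keratinocyte classes in 4 libraries, of 14810 genes ranked) were Sema6d (Pearson r 0.992), Tnfrsf19 (0.992), Pkp4 (0.990), Zfp462 (0.989) and Bmp2 (0.987). Sema6d stood at 103 and 87.4 CPM in Ctrl early cells and 13.9 and 8.81 in Ctrl late cells. The sums of a library share its depth and its cells, so r is given as a description, and Bmp2 is also one of the early follicle markers.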

How the data were processed

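Dorsal skin cells of 2 Ctrl and 2 TKO embryos were profiled with the 10x Chromium 3′ kit (v3), and groups were taken from the labels. The authors deposited UMI counts per gene and cell, neither normalized nor pooled, made with Cell Ranger against GRCm39 (7.1.0 per the file headers, which differs from the version in the methods). The annotation release and the strand and intron settings were not given in the sources used here.

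Cells with at least 2000 genes and at most 10% mitochondrial UMIs were kept, and simulated-doublet scores marked 144, 157, 66 and 90 cells, which were left out. Libraries held 70749496 to 89655247 UMIs over all barcodes. Cells were clustered with scanpy 1.11.5 (2000 variable genes without the 10 genes, the pathway lists and the genes called between genotypes, 30 components, Harmony-type correction, 20 neighbours, Leiden resolution 1). Clusters were named from fixed markers, by a rule settled after the cells had been seen. Names may differ from those of the study.

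Raw counts were summed per library and class and tested with edgeR 4.0.16 (R 4.3.3): TMM scaling, filterByExpr, quasi-likelihood F test, Benjamini-Hochberg adjustment over all genes tested, threshold 0.05. Differences between classes were tested on 8 sums with the library as a block. CPM is per 1e+06 UMIs of the class. Intervals and limits at 0 (3 counts) cover counting error only. Of pathway genes, those past the threshold whose libraries did not overlap were named, in the follicle and basal-like classes. DESeq2 1.42.0, other scalings, filters, clusterings, thinning to 5000 UMIs and each library left out were alternatives. The 10 genes and the lists were chosen with earlier results of these data known. The fits were also run on simulated data, with an outcome that is not given here. The labels do not say which libraries share a litter.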

Additional observations from a re-analysis of the deposited data

Results flagged for a closer look

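The genotype effect differed between the hair follicle-like and basal-like cells for 6 of the 10 genes, and between the early and late follicle-like cells for 2, in the edgeR test of the difference itself (TKO over Ctrl in the first class minus that in the second, log2). For the follicle against the basal-like cells the difference was 0.93 for Wnt10b, 0.92 for Edar, 0.69 for Edaradd, 0.63 for Wnt10a, 0.60 for Lef1 and -1.34 for Sp5. Edar, Lef1 and Wnt10a were called in neither of these classes alone. The follicle class also differed between genotypes in its shares of early and late cells, and the part of this was not tested. For the early against the late cells it was -1.01 for Lef1 and -0.80 for Edar. The late class also differed between genotypes in its early and late markers, and the part of this was not tested. Over all genes 1.98% and 1.64% passed in the first test, for a higher and a lower effect in the follicle, and 0.564% and 0.69% in the second. Without Ctrl replicate 2 the calls of Edar, Edaradd, Wnt10a and Lef1 in the first test were lost, both calls of the second were lost without either Ctrl library, and 1 and 0 of the 10 genes passed without the library block. With 2 libraries a group no sample could be called far from the others.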

How the results depend on the processing

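Of 1024 alternatives for single genes of the 10, 869 kept the side of the threshold, 78 lost a call, 76 gained one and 1 reversed a called value: Wnt10b over the follicle class was -0.021 in the Nr3c2-led cluster alone. The sign changed in 60. Calls were gained over the follicle class under 8 alternatives for Lef1, 6 for Edar and 5 for Wnt10a, in basal-like cells under 3 for Edar, and in the early against late test under 8 for Ltb, 7 for Wnt10b and 4 each for Sp5 and Fgf20. The cause of the changes below was not tested, except that fewer cells or libraries were used where the setting says so.
Genes called over the follicle class (1317) became 2182 with doublets kept, 2720 without batch correction, 2409 at Leiden resolution 2, 2008 with no filter on low counts and 347 to 2045 with each library left out. In basal-like cells (2463) they became 1448 with cells thinned, 4207 with no filter and 1235 to 2968 with a library left out. In early cells (358) they became 1325 with doublets kept, 1126 without correction, 590 and 1340 at Leiden 0.5 and 2, 603 with the lists and 1032 with the genotype genes kept for clustering, 581 with at least 3000 genes a cell, 209 thinned, 557 by DESeq2, 1555 with no filter and 121 to 376 with a library left out. In late cells (1146) they became 624 with at least 3000 genes, 501 thinned, 2559 with no filter and 259 to 1279 with a library left out.
Of the 10 genes, 3 to 7 were called in the follicle, 1 to 4 in basal-like, 1 to 3 in early and 1 to 6 in late cells with a library left out. In the follicle 2 were called in the Nr3c2-led cluster alone and 1 each in the cycling, Shh-led and Pthlh-led clusters alone, and in basal-like cells 2 at Leiden 2. The follicle against basal-like test called 2 to 5 of the 10 with a library left out and 1 without the library block. The early against late test called 5 with doublets kept, 8 without correction, 6 at Leiden 2, 4 with the lists and 7 with the genotype genes kept, 5 with at least 3000 genes, 7 with no filter and 0 without the library block. Over all genes it called 80 with a higher and 98 with a lower effect in the early cells under the settings used throughout. With doublets kept it called 121 and 194, and without correction 221 and 254. At Leiden 2 it called 201 and 240, and with the lists kept 112 and 125. With the genotype genes kept it called 166 and 253, with at least 3000 genes 56 and 74, and with no filter 371 and 334. Without Ctrl replicate 1 or 2 it called 0 genes of all by edgeR (1087 and 1195 at an unadjusted p under 0.05), and without the block 1 (995).
According to the study, controls were Cre-negative littermates unless stated otherwise. Which libraries share a litter is not given in the labels, so the replicate numbers were not taken as pairs. A replicate block gave 1222, 2064, 231 and 1184 genes in the follicle, basal-like, early and late cells, and same-numbered libraries deviated with correlations of -0.11, -0.22, -0.16 and -0.07. It called 4, 4, 3 and 5 of the 10. Crossed pairing, added after the data were seen together with the single-cluster fits, gave 2235 genes and 7 of the 10 in the follicle and 1046 genes in the early cells.
The Pthlh-led cluster rests on 19 and 21 TKO cells, and 4 of the 10 genes were too low to be tested there.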

Other observations

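The cluster named Merkel-like held 13 and 11 TKO cells beside 31 and 21 Ctrl cells. The TKO cells had 97.4 and 193 CPM of the 8 Merkel markers against 21966 and 25454 in Ctrl, so the name rests on the Ctrl cells. Their summed CPM of the 14 hair follicle markers was 2840 and 3267 against 1506 and 1240. Lef1 stood at 569 and 685 CPM in these TKO cells and 29.2 and 157 in Ctrl, Sp5 at 133 and 113 against 1.95 and 13.4, and Ltb at 113 and 85.0 against 0 and 3.34. These cells belong to none of the classes compared and were not tested.

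Within the basal-like cells Edar varied more between clusters than between genotypes. The cluster led by Bmpr1b and Sox6 held 351 and 306 CPM in Ctrl and 252 and 182 in TKO, and that led by Krt79 and Zfp750 held 9.23 and 17.6 against 23.2 and 8.85. Lef1 stood at 1405 and 1640 CPM in the first in Ctrl and 129 and 227 in the second. Both clusters were chosen after their values were seen.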
